A study of Mus musculus with 6 samples.

Results

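The uroplakin genes Upk1a, Upk1b, Upk2, Upk3a and Upk3b and the mesothelial genes Msln and Wt1 were followed in the postnatal lung of mice with and without an active human SRY transgene. They were chosen by name, and the uroplakins were taken because they had moved together in the comparison of hSRY-ON with hSRY-OFF lungs on these same arrays. Their values in that comparison are therefore given as a description and carry no p-value, and the count of member probes called in the fit over all probes is given once, beside the share of all probes called, with nothing read from it. Of the 7 genes, 6 were measured, by 10 of the 25697 probes on the array, which stand for 18138 gene symbols in all. Wt1 was not analysed here.

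Uroplakins are membrane proteins best known from the bladder, where they form rigid plaques on the surface of the umbrella cells of the urothelium. Uroplakins Ia and Ib are tetraspanins, and each pairs with a partner that crosses the membrane a single time, Ia with uroplakin II and Ib with uroplakin IIIa or IIIb, before it leaves the endoplasmic reticulum. In the lung, Upk3b and Upk1b are known from the mesothelium, the sheet of flat cells that lines the pleura, Upk3a from a subset of airway club cells near neuroendocrine bodies, and Msln encodes mesothelin, a surface glycoprotein of mesothelial cells, while Wt1 encodes a transcription factor of the same layer.

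RNA of the lungs came from 3 hSRY-OFF and 3 hSRY-ON mice, all of them FVB males sampled at postnatal day 6. Each mouse gave 1 array of the Illumina MouseRef-8 BeadChip type, and the labels do not say which arrays shared a chip. All mice in the study had the FVB/N background. The transgene, Signalox-hSRY, was a single copy at the H11 locus, in which the ubiquitous CAG promoter first drives DsRed2 and, after Cre has cut this gene out, a FLAG-tagged human SRY followed by EGFP. hSRY-OFF is the study's name for mice whose copy was not recombined. In hSRY-ON mice the copy was recombined in the fertilised egg by Cre protein that came from the oocyte of a Ddx4-Cre mother, and those used for the arrays had not inherited Ddx4-Cre themselves. The CAG promoter is active in most cell types, so the lung was not the only organ with active hSRY. The study also gives the name control to littermates without Signalox-hSRY, so the status of the hSRY-OFF mice rests on their label.

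Values are log2 intensities after background correction and normalization across the 6 arrays, and a change is the mean of hSRY-ON minus the mean of hSRY-OFF on that scale. A probe was called detected on an array at a detection p-value under 0.05, and between 13191 and 14134 probes were detected per array. Of all probes, 13841 were detected on at least 3 arrays and entered the limma fit, and their median change was -0.03. At an adjusted p under 0.05, 26.9% of them were called, 13.6% higher and 13.3% lower in hSRY-ON. The labelled tissue was checked with 10 genes of the alveolar epithelium, of which 9 passed the detection filter, and Sftpc, the surfactant protein C gene of alveolar type II cells, had a level of 14.28 in hSRY-OFF and 14.03 in hSRY-ON (limma adjusted p = 0.15). In whole lung, more cells of a type and more RNA per cell cannot be told apart.

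The 5′ flanks of Upk3b, Upk3a and Upk1a are shown, the 3 members that the RefSeq promoter table used here holds, so that the sequence before a gene whose groups were apart on each probe (Upk3b) can be read beside those of genes whose groups overlapped (Upk3a and Upk1a). Each run is the 250 bases before the annotated start in RefSeq (GRCm38.p6), 5′ to 3′ on the strand of the gene, with matches to any of 5 searched motifs in capitals. The windows are chr5:136038246-136038495 on the plus strand for Upk3b, chr15:85016891-85017140 on the plus strand for Upk3a and chr7:30612735-30612984 on the minus strand for Upk1a.
Upk3b: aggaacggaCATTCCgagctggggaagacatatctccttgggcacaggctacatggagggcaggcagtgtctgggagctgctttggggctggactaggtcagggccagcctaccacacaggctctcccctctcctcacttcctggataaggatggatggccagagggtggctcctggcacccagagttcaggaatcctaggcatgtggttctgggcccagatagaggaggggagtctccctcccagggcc
Upk3a: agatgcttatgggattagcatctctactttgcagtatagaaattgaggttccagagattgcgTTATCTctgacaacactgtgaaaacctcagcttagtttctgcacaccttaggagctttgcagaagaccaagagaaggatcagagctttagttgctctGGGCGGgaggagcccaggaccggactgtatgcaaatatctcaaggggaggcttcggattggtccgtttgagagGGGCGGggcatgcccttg
Upk1a: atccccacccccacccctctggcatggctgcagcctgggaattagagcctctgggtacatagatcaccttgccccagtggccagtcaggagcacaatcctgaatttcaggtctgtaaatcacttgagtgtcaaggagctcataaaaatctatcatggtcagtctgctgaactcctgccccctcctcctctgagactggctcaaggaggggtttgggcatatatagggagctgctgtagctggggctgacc

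The motifs, searched on both strands, were AACAAT for SRY and the SOX factors, CATTCC for TEAD factors, GGGCGG for SP and KLF factors, AGATAA for GATA factors and TATAAA for the TATA box. None of them overlaps another in these windows. The Upk3b flank holds CATTCC at 241 to 236 bases before the start, a motif that 12.6% of 32851 RefSeq promoters of this length hold. The Upk3a flank holds GGGCGG at 91 to 86 and at 18 to 13 bases before the start, which 32.7% of promoters hold at least once, and AGATAA on the opposite strand, printed as TTATCT, at 188 to 183 bases, which 9.99% hold. The Upk1a flank holds none of the 5. AACAAT, found in 9.42% of all promoters, and TATAAA, in 12.4%, are in none of the 3 windows, which says only that these letters are not there. The flanks have a GC content of 60.8% for Upk3b, 49.6% for Upk3a and 54.4% for Upk1a. In the RefSeq table the 7 genes lie on 7 different chromosomes, so no member neighbours another.

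**Figure D1:**
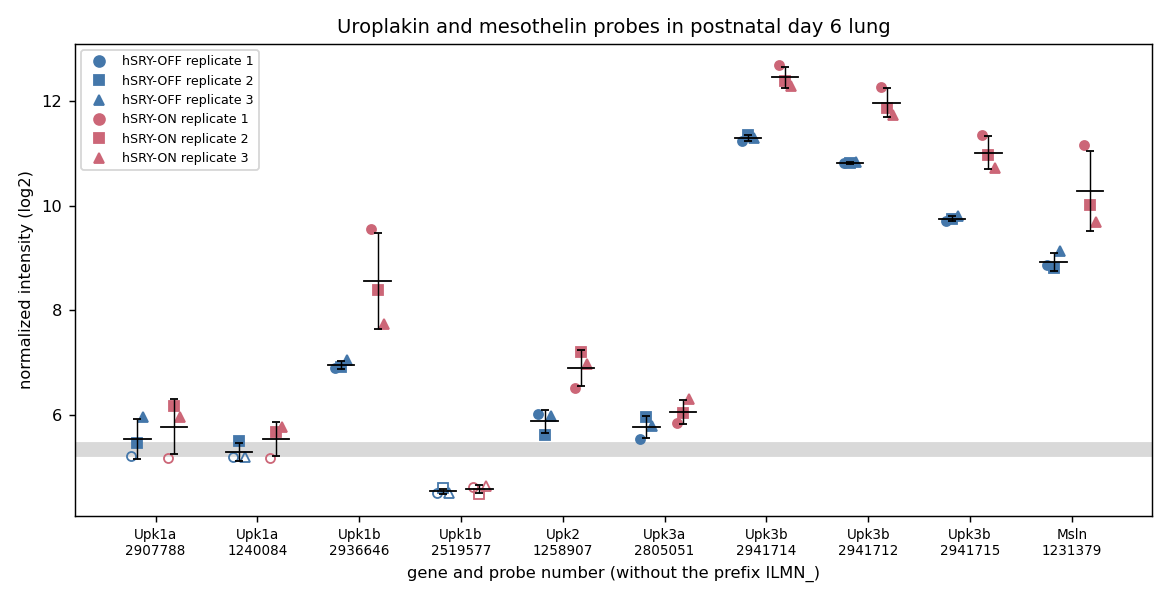
Normalized log2 intensity (vertical axis) of the 10 probes of the 6 measured genes on each of 3 hSRY-OFF arrays (blue) and 3 hSRY-ON arrays (red), with the group mean and SD as bars; open symbols are arrays on which the probe was not detected, and the grey band spans the lowest detected values of the arrays, 5.21 to 5.45. The 3 Upk3b probes, the detected Upk1b probe, Upk2 and Msln have every hSRY-ON array above every hSRY-OFF array, and the groups of Upk1a and Upk3a overlap.

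Upk3b, whose product is the short uroplakin III that partners uroplakin Ib, was higher in every hSRY-ON lung on each of its 3 probes. With probe ILMN_2941714 the hSRY-OFF arrays had levels of 11.23, 11.34 and 11.29 and the hSRY-ON arrays 12.68, 12.39 and 12.30. The groups were far apart next to their own spread, with means of 11.29 ± 0.06 and 12.46 ± 0.20 (SD, n = 3 each) and a change of 1.17 (SE 0.14), or 2.25-fold. The difference was already there in the deposited intensities, which were 2491, 2461 and 3049 in hSRY-OFF and 6308, 5594 and 5487 in hSRY-ON.

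The other probes of Upk3b gave the same picture. With ILMN_2941712 the levels were 10.81, 10.81 and 10.84 in hSRY-OFF and 12.28, 11.87 and 11.74 in hSRY-ON, a change of 1.14 (SE 0.16) or 2.21-fold. With ILMN_2941715 they were 9.71, 9.74 and 9.80 against 11.36, 10.96 and 10.72, a change of 1.26 (SE 0.17) or 2.40-fold. On all 3 probes the hSRY-ON arrays came in the same order, with replicate 1 the highest and replicate 3 the lowest. The 3 probes measure the same RNA on the same arrays, so they stand for 1 gene and not for 3 independent results.

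Upk1b, the tetraspanin partner of uroplakin IIIb, was higher in every hSRY-ON lung and varied widely among them. Its detected probe, ILMN_2936646, had levels of 6.90, 6.90 and 7.04 in hSRY-OFF and 9.55, 8.39 and 7.73 in hSRY-ON. The hSRY-OFF arrays had an SD of 0.08 while the hSRY-ON arrays spanned a wide range, and no hSRY-ON array fell to the hSRY-OFF levels. Against the hSRY-OFF mean, replicate 1 was 6.05-fold, replicate 2 was 2.72-fold and replicate 3 was 1.72-fold higher. The mean change was 1.61 (SE 0.41), or 3.05-fold, and 1.01 without background correction, where it was smaller than that of Msln at 1.16. A second probe for the gene, ILMN_2519577, was not detected on any array, with means of 4.53 ± 0.05 and 4.58 ± 0.08, and was not tested. It says nothing about the groups, so the change of Upk1b rests on 1 probe.

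Msln, the mesothelin gene, followed Upk1b. Its levels were 8.86, 8.80 and 9.12 in hSRY-OFF and 11.15, 10.01 and 9.69 in hSRY-ON. The groups did not overlap, and replicate 1 again stood above the other hSRY-ON arrays, at 4.66-fold the hSRY-OFF mean against 2.12-fold and 1.70-fold for replicates 2 and 3. The mean change was 1.36 (SE 0.35), or 2.56-fold. The deposited intensities were 612, 553 and 803 in hSRY-OFF and 2181, 1145 and 1021 in hSRY-ON.

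Upk2, the single-pass partner of uroplakin Ia, was dim in all lungs. Its levels were 6.02, 5.62 and 5.98 in hSRY-OFF and 6.51, 7.20 and 6.97 in hSRY-ON, with a change of 1.02 (SE 0.21) or 2.03-fold. The groups did not overlap, and here replicate 1 was the lowest of the hSRY-ON arrays. The size of this change depended on the background correction. The deposited intensities were 204, 179 and 223 against 222, 264 and 269, which overlap, and their group means had a ratio of 1.24. Without background correction the change was 0.39.

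Upk3a, the long uroplakin III found in club cells and urothelium, did not separate the groups. It was detected on all 6 arrays, with levels of 5.54, 5.96 and 5.78 in hSRY-OFF and 5.84, 6.03 and 6.29 in hSRY-ON. The lowest hSRY-ON array lay below the highest hSRY-OFF array, and the change was 0.30 (SE 0.17). These levels are close to the lowest detected values of the arrays, 5.21 to 5.45, so the overlap does not show that the groups were alike.

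Upk1a, the tetraspanin partner of uroplakin II, was near the limit of detection on both of its probes. With ILMN_2907788 the levels were 5.20, 5.47 and 5.95 in hSRY-OFF and 5.18, 6.17 and 5.96 in hSRY-ON, with 2 arrays of each group detected and a change of 0.23 (SE 0.30). With ILMN_1240084 they were 5.19, 5.49 and 5.18 against 5.17, 5.67 and 5.77, with 1 hSRY-OFF and 2 hSRY-ON arrays detected and a change of 0.25 (SE 0.19). The groups overlapped on both probes. A missing separation this close to background does not show that the groups were alike.

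Of the 10 probes, 9 passed the detection filter. Among those, 6 probes of 4 genes were called higher in hSRY-ON and 0 lower, beside 13.6% and 13.3% of all tested probes, 26.9% together. The same 6 probes had groups that did not overlap, all of them higher in hSRY-ON, beside 22.4% of all tested probes that lay higher without overlap and 46.6% that did not overlap in either direction. Since the genes were taken for this movement, nothing is read from these counts. By pairs, the changes were 1.61 for Upk1b beside 1.14 to 1.26 for its partner Upk3b and 0.30 for its partner Upk3a, whose groups overlapped. For the partners Upk1a and Upk2 they were 0.23 to 0.25 and 1.02. Upk1a was near the limit of detection, and the change of Upk2 was 0.39 without background correction, so nothing is read from the pairs either.

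**Figure D2:**
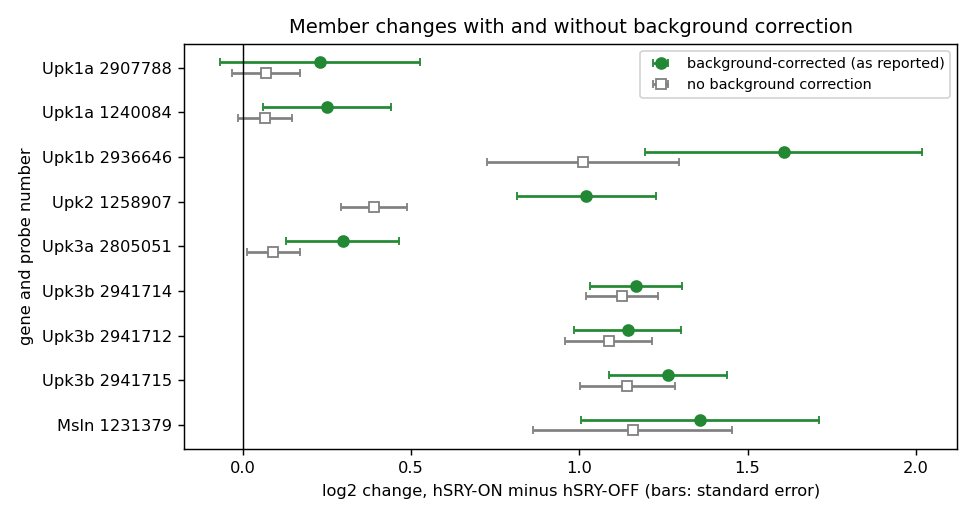
Log2 change, hSRY-ON minus hSRY-OFF (horizontal axis, bars are standard errors), of the 9 member probes that passed the detection filter, with background correction (filled circles) and without it (open squares). The Upk3b probes moved little, from 1.14 to 1.26 down to 1.09 to 1.14, while Upk1b moved from 1.61 to 1.01 and Upk2 from 1.02 to 0.39.

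The members that differed did not vary alike from lung to lung. The SD of Upk1b over the hSRY-ON arrays, 0.92, was larger than that of 98.5% of all tested probes, and that of Msln, 0.76, larger than that of 96.7%. For the 3 Upk3b probes this share was 44.2% to 69.6%. The median SD of all tested probes was 0.13 in hSRY-OFF and 0.22 in hSRY-ON. hSRY-ON replicate 1 was the highest of the hSRY-ON arrays for Upk1b, Msln and each Upk3b probe, as it was for 31.7% of all tested probes and for 23.7% of those called higher. It was also the highest for Krt19 and for the mesothelial genes Cldn15, Bnc1, Rspo1 and Aldh1a2, which are described below. Without this array the change fell to 1.11 for Upk1b and to 0.93 for Msln. The same array had the fewest detected probes, 13191, and the part of this in the result was not tested.

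**Figure D3:**
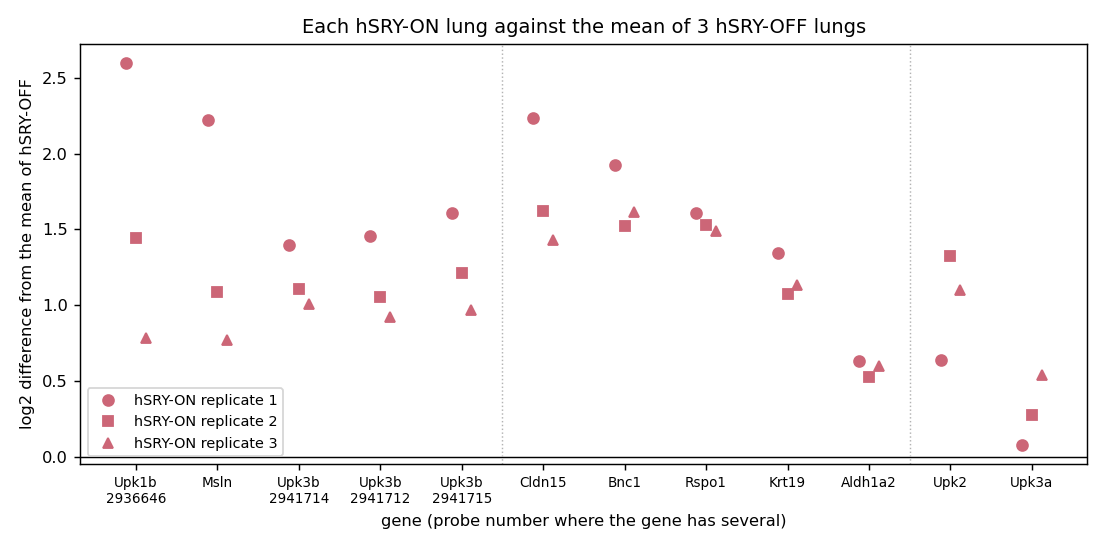
Log2 difference of each hSRY-ON array from the mean of the 3 hSRY-OFF arrays (vertical axis) for members, for Krt19 and for other mesothelial genes, with dotted lines between the members that share an order, the other genes and the remaining members. Replicate 1 (circles) is the highest for Upk1b (2.60), Msln (2.22) and the Upk3b probes and the lowest for Upk2 and Upk3a. It is also the highest for Cldn15, Bnc1, Rspo1, Krt19 and Aldh1a2. Cldn15 and Rspo1 have the same full order as the first group of members, so this order is not particular to them.

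To find the genes most like each member, the values of every tested probe were centred on their mean over the 6 arrays and divided by their SD, and the root-mean-square difference between probes was taken over the 6 arrays, so that 0 is an identical shape. By this measure Upk1b and Msln were 0.105 apart, and Msln was the second nearest of all symbols to Upk1b, after Pon1 at 0.097 and before Fas at 0.107. Pon1, the paraoxonase gene, was also the nearest to Msln at 0.044, followed by Mapk7 at 0.066 and Cd55 at 0.081. The 3 Upk3b probes were 0.043 to 0.101 from one another and 0.271 to 0.360 from Upk1b.

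No symbol was among the 3 nearest of more than 1 Upk3b probe. Those of ILMN_2941714 were Cbr2 (0.036), a carbonyl reductase gene of club cells, LOC100046120 and Plekhb1, those of ILMN_2941712 were Krt79, Cldn10 and Elmo3, and those of ILMN_2941715 were Nupr1, Slc44a3 and Wwp1. Upk2 stood 0.810 from Upk1b, and its nearest symbols were Prr3 (0.068), Phkg2 and Wnk4. Upk3a had no close neighbour, the nearest being Cog1 at 0.184, then Lpar2 and Foxj2. For Upk1a they were BC030499, 0910001A06Rik and Zc3hav1 with the first probe and Dus3l, Zfp771 and Lass6 with the second. With 6 arrays in 2 groups, a small distance mostly says that the groups differ in the same direction and that the arrays within a group keep the same order.

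Other mesothelial genes, outside the members, were divided. Of 14 listed, 13 were analysed and 8 passed the detection filter, of which 4 were called higher, 1 lower and 3 neither, with a median change of 0.44 beside -0.03 for all tested probes. The counts of this and the later lists stand beside 13.6% of all tested probes called higher and 13.3% called lower. The genes with the smallest p were Rspo1, Bnc1 and Cldn15. Rspo1, a secreted activator of WNT signalling, had levels of 5.70, 5.97 and 5.85 in hSRY-OFF and 7.45, 7.37 and 7.33 in hSRY-ON. All hSRY-ON arrays were higher, and it rose by 1.54 (SE 0.12, limma adjusted p = 0.000714). Bnc1, which encodes the zinc finger protein basonuclin 1, had levels of 6.29, 6.72 and 6.57 against 8.45, 8.05 and 8.14 and rose by 1.69 (SE 0.17, limma adjusted p = 0.00145). Cldn15, a claudin gene of tight junctions, had levels of 6.85, 6.96 and 6.77 against 9.09, 8.48 and 8.29 and rose by 1.76 (SE 0.21, limma adjusted p = 0.00257), and its other kept probe rose by 1.15 (limma adjusted p = 0.0131). The sizes of these rises depended on the background correction, without which they were 0.64 for Rspo1, 0.91 for Bnc1 and 1.07 for Cldn15, all of them still called.

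The remaining called mesothelial genes, Aldh1a2 and Podxl, are named here after their values were seen. Aldh1a2, an enzyme gene of retinoic acid synthesis, rose by 0.58 (limma adjusted p = 0.016), though its other kept probe, at 0.48, was not called (limma adjusted p = 0.132), and the called probe lost its call without hSRY-OFF replicate 2 or 3 (limma adjusted p = 0.0646 and 0.0597). Podxl, which encodes podocalyxin and is also made by endothelium, changed by -0.73 (limma adjusted p = 0.0202). This was the single mesothelial gene called lower, and the call was lost without hSRY-OFF replicate 1 or 2 or hSRY-ON replicate 2 (limma adjusted p = 0.0766, 0.076 and 0.0591). Some mesothelial markers were not detected while others were. Lrrn4 and Gpm6a were not detected on any array, as were 4 of the 13 analysed genes in all, and Calb2, the calretinin gene, was detected on 1 hSRY-ON array only. The summed linear level of the list was 5800 to 6371 in hSRY-OFF and 4850 to 6154 in hSRY-ON, a sum in which the brightest genes weigh most, so that it does not follow the dimmer genes called higher.

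**Figure D4:**
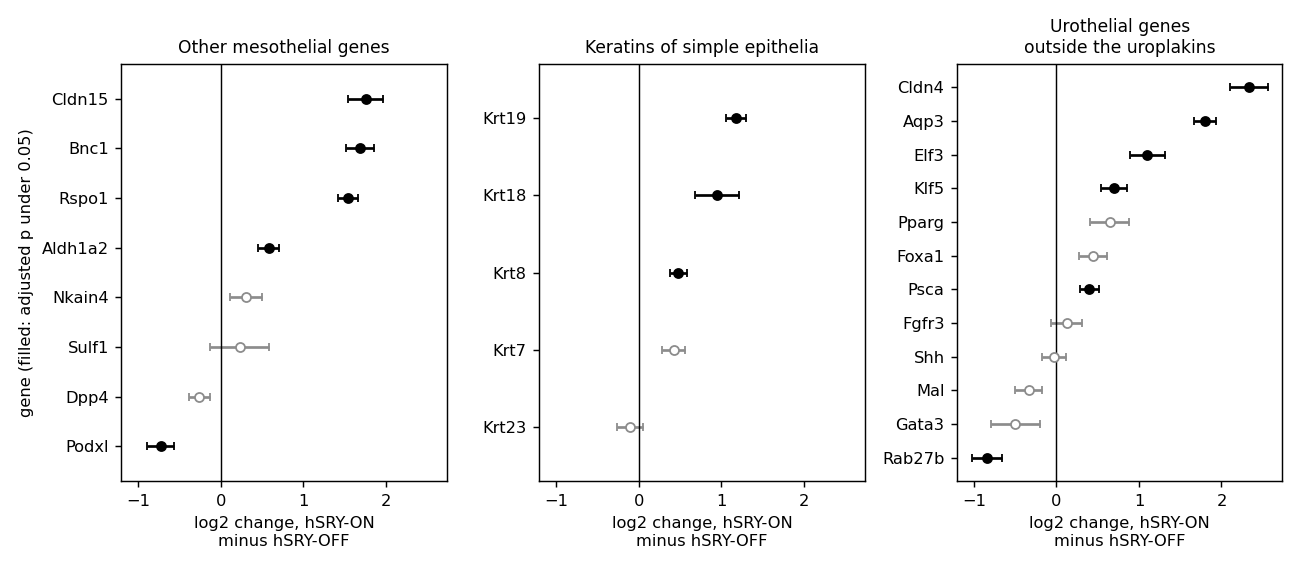
Log2 change, hSRY-ON minus hSRY-OFF (horizontal axes, bars are standard errors), of the tested genes of 3 lists, 1 probe for each gene; filled points were called at a limma adjusted p under 0.05. Cldn15, Bnc1, Rspo1, Krt19 and Cldn4 lie above 1 and Podxl and Rab27b below 0, and the point of Aqp3 is the fitted value of a gene detected in hSRY-ON only.

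Keratins of simple epithelia, which mesothelium shares with airway and urothelium, moved upward in part. Of 6, 5 passed the filter and 3 were called higher and 0 lower, with a median change of 0.48. Krt19 went from 9.94 ± 0.06 to 11.12 ± 0.14 and rose by 1.18 (SE 0.12, limma adjusted p = 0.00161). Krt8 rose by 0.48 (limma adjusted p = 0.0181) and Krt18 by 0.95 (limma adjusted p = 0.0371). Neither call held with every array left out in turn. That of Krt8 was lost without any 1 of the hSRY-OFF arrays (limma adjusted p = 0.0661 to 0.0736), and that of Krt18 without any 1 array except hSRY-ON replicate 3 (limma adjusted p = 0.0682 to 0.116) and without the detection filter (limma adjusted p = 0.057). The summed level was 8478 to 8940 in hSRY-OFF and 11932 to 12753 in hSRY-ON, without overlap.

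Urothelial genes outside the uroplakins showed whether other genes of the tissue best known for uroplakins were measured in these lungs. Of 18 listed, 12 passed the filter, with 5 called higher, 1 lower and 6 neither and a median change of 0.42. Cldn4, a claudin gene of many epithelia, went from 7.56 ± 0.08 to 9.89 ± 0.46 and rose by 2.33 (SE 0.23, limma adjusted p = 0.0014). Aqp3, a water and glycerol channel gene, was not detected on any hSRY-OFF array and was detected on all hSRY-ON arrays. It passed the detection filter through the hSRY-ON arrays alone, so no p-value is given and nothing is read from its call. Against the detection limit it was at least 2.78-fold higher. This bound holds on the background-corrected scale only, since the deposited means had a ratio of 1.43. Elf3, an epithelial transcription factor gene, rose by 1.10 (SE 0.21, limma adjusted p = 0.0115, and 0.0505 without hSRY-OFF replicate 2). Of its other kept probes, 1 rose by 0.93 (limma adjusted p = 0.0117) and 1, at 0.37, was not called (limma adjusted p = 0.212). Without background correction the change of Cldn4 was 1.74.

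Several genes that define the urothelium and its basal layer were not detected. Krt5 and Trp63 were not detected on any array, as were 5 of the 18 genes, and Gata3 changed by -0.50 without being called (limma adjusted p = 0.244). Klf5, Psca and Rab27b, named after their values were seen, were the other called genes. Klf5, a factor of lung as well as bladder epithelium, rose by 0.70 (limma adjusted p = 0.0182), Psca by 0.40 (limma adjusted p = 0.0408), and Rab27b, a vesicle transport gene, changed by -0.84 (limma adjusted p = 0.0175). The call of Psca was lost without any 1 of the 6 arrays (limma adjusted p = 0.056 to 0.15) and without background correction (limma adjusted p = 0.275), that of Klf5 without any 1 of the hSRY-OFF arrays (limma adjusted p = 0.0614 to 0.0665) and that of Rab27b without hSRY-OFF replicate 1 or 2 (limma adjusted p = 0.0734 and 0.0676). The summed level of the list was 7443 to 8732 in hSRY-OFF and 10470 to 11740 in hSRY-ON. Airway and alveolar epithelium also express Cldn4, Elf3 and Klf5, so the list is not particular to urothelium.

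The tetraspanin family, to which Upk1a and Upk1b belong, was examined for a shared movement and showed none in its median, 0.01. Of 24 tested genes outside the members, 6 were called higher, 2 lower and 16 neither, beside 26.9% of all tested probes called in either direction. Tspan11 rose by 2.99 (SE 0.18, limma adjusted p = 0.000474), from 5.96 ± 0.12 to 8.95 ± 0.32, and Tspan1, known from secretory and ciliated epithelium, by 2.10 (SE 0.16, limma adjusted p = 0.000702). Cd82 rose by 0.89 (SE 0.12, limma adjusted p = 0.00338). Without background correction these changes were 1.66 for Tspan11, 0.80 for Tspan1 and 0.80 for Cd82, all still called. The summed level of the family was 66369 to 69968 in hSRY-OFF and 62679 to 68663 in hSRY-ON, and here too the brightest genes weigh most.

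Markers of other epithelial cells moved in the same lungs as the members. The list of airway secretory cells had a summed level of 71715 to 74516 in hSRY-OFF and 107899 to 125557 in hSRY-ON. Of its 7 tested genes, 5 were called higher and 0 lower, beside 13.6% and 13.3% of all tested probes. Among them Scgb3a1, a secretoglobin gene, rose by 3.75, Hp, the haptoglobin gene, by 1.63 and Cyp2f2, a club cell cytochrome, by 1.18 (limma adjusted p = 0.000598, 0.000598 and 0.00295), and without background correction Scgb3a1 changed by 2.44. Scgb1a1, the defining club cell gene, changed by 0.0062 (limma adjusted p = 0.974), a value whose sign turned under some of the other settings, at -0.032 with cyclic loess. Its deposited intensities were 29488 to 33784, and whether signals this bright still follow the amount of RNA was not tested. Bpifa1, Cckar and Reg3g, also on the list, were not detected on any array. All 10 genes of ciliated cells passed, with 7 called higher and 0 lower and a summed level of 10925 to 11417 against 14714 to 17700, and those of smallest p were Cdhr3 (listed as 1110049B09Rik), Dynlrb2, a dynein light chain gene, and Spag6, a gene of the ciliary axoneme, which rose by 1.78, 1.38 and 1.54 (limma adjusted p = 0.000884, 0.00105 and 0.00105). Foxj1, the master regulator of motile cilia, rose by 1.15 (limma adjusted p = 0.00646), or by 0.45 without background correction. The part of these cells in the member results was not tested.

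Neuroendocrine genes, beside whose cells Upk3a is known, also moved, while Upk3a itself was too close to background to compare with them. Of 5 tested, 4 were called higher and 0 lower, with a summed level of 685 to 705 in hSRY-OFF and 1229 to 1735 in hSRY-ON. The called genes include a gene detected on no hSRY-OFF array, which passed the filter through the hSRY-ON arrays alone. Uchl1 rose by 1.75, Calca, the gene of calcitonin and its related peptide, by 1.70 and Resp18 by 1.06 (limma adjusted p = 0.00105, 0.0171 and 0.0106). Resp18 was detected on 1 hSRY-OFF array and 3 hSRY-ON arrays, and its deposited means had a ratio of 1.20. Without background correction Calca changed by 1.04 and Resp18 by 0.32, and Calca lost its call without any 1 of the hSRY-OFF arrays (limma adjusted p = 0.0524 to 0.0607). Chga, Chgb and Cplx2 were not detected on any array. In stratified squamous epithelium, Krt15 rose by 2.45 and Krt14 by 2.07 (limma adjusted p = 0.00139 and 0.0162), which were the 2 genes called of 4 tested, and Ivl, the involucrin gene, changed by 0.56 without being called (limma adjusted p = 0.316). Without background correction Krt15 changed by 1.10 and Krt14 by 1.19, and Krt14 lost its call without hSRY-OFF replicate 2 or 3 (limma adjusted p = 0.0637 and 0.0501). The squamous list had a summed level of 869 to 1003 against 1233 to 1937 and 6 genes not detected anywhere.

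Genes of cardiac muscle and hepatocytes were looked at as well, because heart and liver lie close to a dissected lung. Whether their RNA came from the lung itself or from beside it was not tested. Of 8 tested cardiac muscle genes 3 were called higher and 1 lower. Nppa, the atrial natriuretic peptide gene, had levels of 5.11, 5.32 and 6.94 in hSRY-OFF and 12.32, 12.39 and 9.30 in hSRY-ON, so that the size of its change depended on the array, at 6.56 without hSRY-ON replicate 3 and 5.02 without hSRY-ON replicate 2, and on the background correction, at 3.82 without it. Nppa rose by 5.55 and Myh7 by 0.98, while the atrial light chain gene Myl4 changed by -1.94 (limma adjusted p = 0.00608, 0.00866 and 0.00499). The summed cardiac level overlapped, at 6469 to 8592 in hSRY-OFF and 4480 to 9469 in hSRY-ON. Hepatocyte genes were dim, with a summed level of 295 to 400 against 453 to 1111. Of 5 tested, 3 were called higher, Ahsg, Fga and Apoa1, all undetected in hSRY-OFF. They passed the detection filter through the hSRY-ON arrays alone, so no p-values are given and nothing is read from their calls. Against the detection limit Ahsg was at least 3.97-fold, Fga at least 3.29-fold and Apoa1 at least 2.14-fold higher. These bounds hold on the background-corrected scale only, since the ratios of the deposited means were 1.75, 1.69 and 1.44. Apoa1 also lost its call without any 1 of the hSRY-OFF arrays. Alb, Ttr and Fgb were not detected on any array.

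Visceral smooth muscle, which a bladder wall or an airway would hold, went the other way. Of 5 tested genes 4 were called lower and 0 higher, with a median change of -0.95 and a summed level of 11861 to 13098 in hSRY-OFF and 5805 to 7140 in hSRY-ON. Smtn changed by -0.95, Myh11 by -1.12 and Des by -0.73 (limma adjusted p = 0.00296, 0.00711 and 0.00634). None of the 6 adipocyte genes passed the filter. In the alveolar list 3 of 9 tested genes were called higher and 0 lower, Sftpb by 0.67, Abca3 by 0.61 and Napsa by 0.48. The summed level was 77442 to 82041 against 92427 to 93572. The other kept probe of Abca3 changed by -0.07 (limma adjusted p = 0.909), at a mean level of 6.06 against 12.91 for the called probe. Napsa lost its call without any 1 of the hSRY-OFF arrays or hSRY-ON replicate 2 (limma adjusted p = 0.0511 to 0.0882). The part of these tissues in the member results was not tested.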

How the data were processed

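The authors deposited, for each probe and array, an intensity (mean bead signal, linear scale, neither background-corrected nor normalized) and a detection p-value. RNA had been amplified and labelled with biotin. The software that summarised the beads is not given in the sources used here. The study analysed its arrays with TCC, and the submitters' processing notes name limma. TCC is made for counts, whereas these files hold intensities, and the fits here were made in limma (version 3.58.1, under R 4.3.3).

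Intensities were background-corrected from the detection p-values (normexp, offset 16), quantile-normalized and put on a log2 scale, which removes any overall shift between groups. The offset understates changes of dim probes. Probes detected at p under 0.05 on at least 3 of 6 arrays were kept, 13841 (53.9%) for 10292 symbols. A model with group as its single term was fitted by lmFit and eBayes, two-sided, with Benjamini-Hochberg adjustment over all kept probes. The pipeline was tested on simulated data. With 3 arrays a group, precision is limited by their number. Lists used, for each gene, the kept probe with the highest mean, and summed levels are sums of linear normalized values. A bound sets the mean of the detected group against the detection limit of the other group's arrays.

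Groups and replicate numbers come from the labels. The members and the lists were chosen with earlier results of these data known. Besides the members, the text names the 3 genes of smallest p in each list, 11 genes chosen by name, and the 3 symbols nearest to each member probe, and 5 further genes of short lists of calls, said to be so where they stand. It also names some list genes that were not detected on any array, such as Chga and Alb. Promoters came from a RefSeq table that held 3 of the members.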

Additional observations from a re-analysis of the deposited data

How the results depend on the processing

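Over all probes, 3729 were called, 1639 to 4475 when 1 array was left out (1639, 1743 and 2226 when that array was replicate 1, 2 or 3 of hSRY-OFF, and 2483 for replicate 2 of hSRY-ON), and 1326 at an adjusted p under 0.01. Of the mesothelial genes 5 were called, 3 to 5 with 1 array left out (3 without hSRY-OFF replicate 2) and 3 at an adjusted p under 0.01. Of the urothelial genes 6 were called, 2 to 8 with 1 array left out (3 and 2 when it was replicate 1 or 2 of hSRY-OFF) and 2 at an adjusted p under 0.01. The urothelial counts include Aqp3, which passed the detection filter through the hSRY-ON arrays alone, so nothing is read from its part in them. The cause of the differences between arrays left out was not tested. The change of each tested member probe kept its sign under every alternative run that included the probe. For Upk1a (ILMN_2907788) the change was 0.029 (SE 0.31) without hSRY-ON replicate 2, so its sign says little. All runs use the same arrays on which the uroplakins were chosen, so the kept signs are a description only. Upk3b (ILMN_2941714) was 1.37 with median scaling, and 1.06 to 1.25 with 1 array left out. Upk2 was 0.39 without background correction and 0.73 with an offset of 50. Reversed signs were found for Scgb1a1, at -0.032 with cyclic loess, -0.0043 with array weights and -0.037 to 0.078 with 1 array left out, and for Sftpc, at 0.12 with median scaling, and neither was called under these settings. Over 45 list genes named in the text, chosen by rule or after their values were seen, 643 of 711 comparisons kept direction and side of the threshold, 60 lost the call and 2 gained it. The 45 include Aqp3, Ahsg, Fga and Apoa1, which passed the detection filter through the hSRY-ON arrays alone, so these counts are a description only. Without background correction 17 of the 45 moved by over 1.5 times in fold, all in the same direction as before. The replicate numbers were not taken as pairs in the main fit. Deviations of same-numbered arrays from their group means correlated at -0.11, 0.10 and -0.09. Those of hSRY-OFF replicate 3 and hSRY-ON replicate 1 correlated at 0.16. With 3 arrays a group such values cannot exclude a pairing. A fit with the replicate block called 2657 probes, 4 mesothelial and 5 urothelial genes. No scaling moved the median of all probes by over 0.1. Dim probes (Upk1a, Upk2, Upk3a) are limited by their closeness to background.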
